A study of Mus musculus with 2 samples.

Results

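Border-associated macrophages are the resident macrophages of the meninges, the perivascular spaces and the choroid plexus, and 9 genes that mark them were followed in mononuclear cells from the brains of WT and of CD47 KO animals: *Mrc1*, *Cbr2*, *Cd163*, *Lyve1*, *Pf4*, *F13a1*, *Ms4a7*, *Siglec1* and *Folr2*. All probe sets, the groups of short probes through which the array reads a transcript, were taken whose platform annotation names exactly 1 gene, that gene being a marker. This gave 13 probe sets for the 9 genes, out of 34945 probe sets for 18193 genes. No probe set was excluded for naming a marker together with another gene. Of the 9 markers, 6 are read by 1 probe set, *Lyve1* and *Ms4a7* by 2 and *Siglec1* by 3.

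Both groups were labelled as male mice, with no treatment given in the labels, while the strain was not stated in the paper or the labels. The WT pool held RNA of 7 mice at 10 to 15 wks of age. The CD47 KO pool held RNA of 6 mice at 12 to 16 wks of age, which lack *Cd47* in all cells and not in 1 cell type. Whole brain was digested, cells were taken between the 37% and 70% Percoll layers, and 20 ng of total RNA per pool was amplified for a single GeneChip Mouse Genome array. There were thus no replicates, no error between animals and no test for any difference below, and genotype, age range, pool and array cannot be told apart.

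Border-associated macrophages and microglia descend largely from embryonic progenitors and depend on the CSF1 receptor, but they occupy different compartments of the brain. The former lie along vessels and membranes, take up material from blood and cerebrospinal fluid, and carry endocytic receptors that parenchymal microglia of the healthy brain largely lack. The markers fall into uptake receptors (*Mrc1*, *Cd163*, *Lyve1*, *Siglec1* and *Folr2*), secreted proteins or those acting outside the cell (*Pf4* and *F13a1*), and an enzyme and a membrane protein (*Cbr2* and *Ms4a7*). Not all are private to these macrophages, since platelets and megakaryocytes make *Pf4* and *F13a1*, and lymphatic endothelium makes *Lyve1*.

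Signals are given as MAS5 intensities, which measure the brightness of a probe set on a linear scale. A probe set was called expressed when it reached the median of its own array, 161 in WT and 146 in CD47 KO, on at least 1 array, and each gene is represented by its brightest expressed probe set, or by its brightest one where none was expressed. As a check of the labels, the 5 *Cd47* probe sets had Log2 ratios (KO/WT) between -1.45 and -1.86. The X inactivation RNA *Xist* had a signal of 7070 in WT and 6530 in CD47 KO on its brightest probe set, although both pools are labelled male. Signals of different genes rank the brightness of probe sets, not the abundance of transcripts.

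Of the 9 markers, 5 were expressed and 4 were not. The expressed ones were *Mrc1*, *Cbr2*, *Pf4*, *F13a1* and *Ms4a7*, each on 1 probe set, and all probe sets of *Cd163*, *Lyve1*, *Siglec1* and *Folr2* lay below the median on both arrays. *F13a1* passed only through the WT array, so that a ratio below 0 was built into its passing. On its brightest probe set, each of 8 markers had a lower signal in CD47 KO than in WT cells (7 when each array was centred on its own median, which turned *Ms4a7*), and *Lyve1* had a higher one. The 8 include *Cd163*, *Siglec1* and *Folr2*, which were not expressed. Of all expressed genes 49.7% were lower, and of all named probe sets 52.6% were. The median Log2 ratio was -0.72, the value of *F13a1*, over the 9 markers and also over the 5 expressed ones. Over the 11695 expressed genes of the array it was 0.00. *Mrc1* and *Cbr2* were more than 2-fold lower, and no expressed marker was more than 2-fold higher. Among all expressed genes, 5.46% were more than 2-fold lower and 3.56% more than 2-fold higher, or 4.04% and 4.96% when each array was centred on its own median, which left both markers past 2-fold. *Mrc1* and *Cbr2* are also among the 4 markers that reached the median on both arrays, and of all 10292 such genes 2.42% were more than 2-fold lower and 1.28% higher. Counted over all 13 marker probe sets with no threshold, 4 were more than 2-fold lower and 3 higher, beside 12.8% and 8.58% of all named probe sets. In a mixed preparation, fewer cells of a type and less RNA per cell cannot be told apart.

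**Figure D1:**
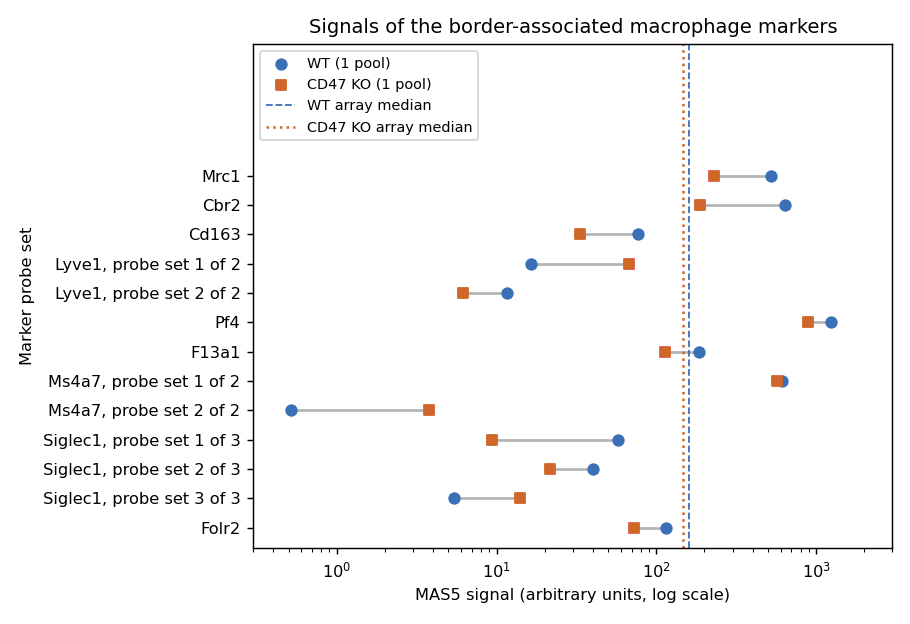
MAS5 signal (arbitrary units, log scale) of each marker probe set in the WT pool (circles) and the CD47 KO pool (squares), 1 array each, with the array medians as vertical lines and probe sets of a gene numbered from the brightest. The circles lie to the right of the squares for 10 of 13 probe sets, and the 3 exceptions (*Lyve1*, *Ms4a7* and *Siglec1*) lie below both medians. Of all named probe sets 52.6% were lower in CD47 KO.

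*Mrc1* encodes the mannose receptor CD206, an endocytic lectin that binds glycoproteins with terminal mannose. Its signal was 522 in the WT pool and 228 in the KO pool, above the median on both arrays. This is a 2.29-fold lower signal in CD47 KO, a Log2 ratio of -1.19. On the WT array 74.3% of probe sets were dimmer than *Mrc1*, and on the CD47 KO array 58.9% were.

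*Cbr2* encodes carbonyl reductase 2, an enzyme that reduces carbonyl compounds, and showed the largest difference among the expressed markers. Its signal was 638 in the WT pool and 188 in the KO pool, so the WT pool was the brighter by 3.39-fold and the Log2 ratio was -1.76. In the WT array it was brighter than 78.0% of probe sets, and in the CD47 KO array than 55.0%. Both genes were thus well above the middle of the WT array and just above the middle of the CD47 KO array.

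To set these differences against the scatter of the arrays, all named probe sets were divided into 10 groups of equal size by their mean signal. *Mrc1* and *Cbr2* belonged to the same group, with geometric mean signals from 317 to 501, where the SD of the Log2 ratio was 0.57 and 4.32% of probe sets were more than 2-fold lower. The size of the Log2 ratio was 2.08 times this SD for *Mrc1* and 3.07 times for *Cbr2*. This SD holds the noise of the arrays as well as true differences between the pools, and it is not an error between animals. Each of these genes has a single probe set, so no other probe set bears on its value.

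The promoters are shown of the 4 markers that reached the median on both arrays, *Mrc1*, *Cbr2*, *Pf4* and *Ms4a7*. On the deposited signals all 4 were lower in CD47 KO, *Mrc1* and *Cbr2* by more than 2-fold. A link between these sequences and the ratios was not tested. Each line gives the 250 bases before the transcription start from RefSeq (build GRCm38.p6), 5′ to 3′ on the strand of the gene. Capitals mark GAGGAA, the core letters of sites for the macrophage factor PU.1, on either strand, where the opposite strand reads TTCCTC. The windows are chr2:14229164-14229413 (plus strand) for *Mrc1*, chr11:120732022-120732271 (minus strand) for *Cbr2*, chr5:90772185-90772434 (plus strand) for *Pf4* and chr19:11336147-11336396 (minus strand) for *Ms4a7* for the upstream one of its 2 listed starts.
*Mrc1*: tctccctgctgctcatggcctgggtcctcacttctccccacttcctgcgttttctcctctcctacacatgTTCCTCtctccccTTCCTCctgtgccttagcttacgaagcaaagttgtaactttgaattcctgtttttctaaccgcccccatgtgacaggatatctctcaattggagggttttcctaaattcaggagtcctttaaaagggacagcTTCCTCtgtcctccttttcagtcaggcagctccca
*Cbr2*: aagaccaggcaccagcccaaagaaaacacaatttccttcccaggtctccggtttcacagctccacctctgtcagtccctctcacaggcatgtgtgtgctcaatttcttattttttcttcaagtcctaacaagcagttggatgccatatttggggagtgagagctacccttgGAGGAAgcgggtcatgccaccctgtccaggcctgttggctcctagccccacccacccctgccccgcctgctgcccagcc
*Pf4*: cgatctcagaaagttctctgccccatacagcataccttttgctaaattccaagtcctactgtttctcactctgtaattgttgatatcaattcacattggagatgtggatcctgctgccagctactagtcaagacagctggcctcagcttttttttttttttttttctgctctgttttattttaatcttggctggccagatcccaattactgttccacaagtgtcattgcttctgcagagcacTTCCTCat
*Ms4a7*: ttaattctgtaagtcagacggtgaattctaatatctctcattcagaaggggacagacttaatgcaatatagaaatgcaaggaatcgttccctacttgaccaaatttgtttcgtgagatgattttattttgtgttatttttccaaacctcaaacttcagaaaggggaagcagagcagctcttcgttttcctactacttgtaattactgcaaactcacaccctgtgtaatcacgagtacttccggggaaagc

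The letters GAGGAA occurred 3 times before *Mrc1*, always on the opposite strand, and once before *Cbr2* and before *Pf4*. They did not occur before either listed start of *Ms4a7*. Of 32851 windows of this length before all listed starts, 23.3% held them at least once. RefSeq windows were at hand for 7 of the 9 markers, 10 windows in all. *F13a1* held the letters in 1 of its 2 windows, while those of *Cd163* and *Folr2* did not. A match describes these letters and does not show binding.

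*Pf4* encodes the chemokine CXCL4, which platelets store in their granules and border macrophages also express. It was the brightest of the marker probe sets, with 1229 in the WT pool and 888 in the KO pool, a Log2 ratio of -0.47 or a 1.39-fold lower signal in CD47 KO. Probe sets of like signal had an SD of 0.38, so that the difference was 1.22 times the SD.

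*F13a1* encodes the A subunit of coagulation factor XIII, a transglutaminase that cross-links fibrin and matrix proteins. Its signal was 185 in the WT pool and 112 in the KO pool, a Log2 ratio of -0.72. Among probe sets of like signal the SD was 0.75, which is larger than this difference.

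*Ms4a7* encodes a membrane protein of the MS4A family. Its expressed probe set had 612 in the WT pool and 565 in the KO pool, a Log2 ratio of -0.12, which turned to 0.02 when each array was centred on its own median. This was the smallest difference of the expressed markers, at 0.26 times the SD of probe sets of like signal. The second *Ms4a7* probe set had signals of 0.520 and 3.76 and was among the dimmest of the arrays, where 0.353% of WT and 5.73% of CD47 KO probe sets were dimmer.

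**Figure D2:**
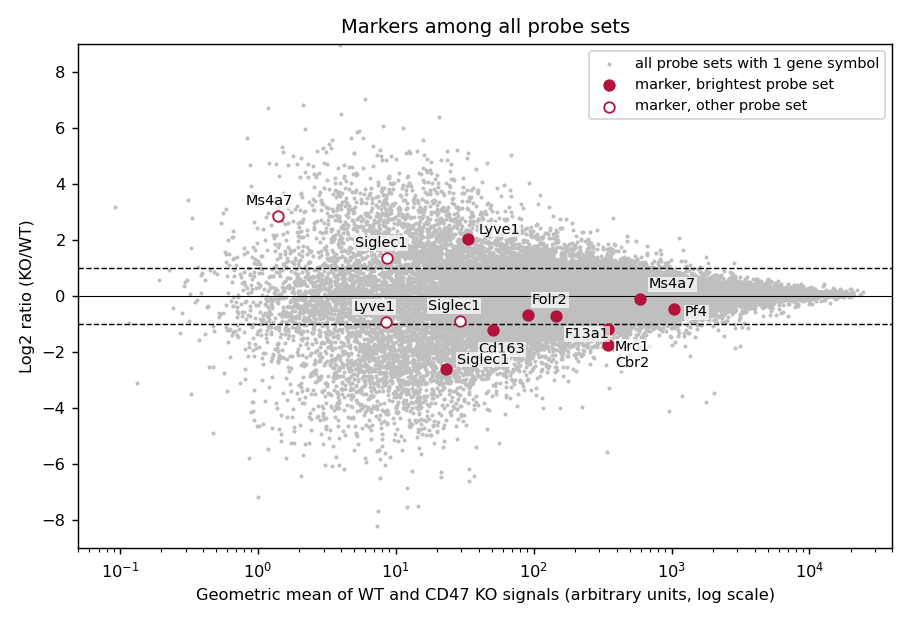
Log2 ratio (KO/WT) against the geometric mean of the WT and CD47 KO signals (arbitrary units, log scale) for all probe sets with 1 gene symbol (grey) and for the markers (brightest probe set filled, others open), with dashed lines at 2-fold. *Mrc1* and *Cbr2* lie below the lower 2-fold line, as do 4.32% of probe sets of like signal. *Pf4*, *F13a1* and *Ms4a7* lie within 2-fold on their brightest probe sets, and the dim probe sets of *Lyve1*, *Siglec1* and *Ms4a7* lie on both sides of 0.

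The 4 markers that were not expressed are uptake receptors. *Folr2*, the folate receptor beta gene, had 115 in the WT pool and 72.9 in the KO pool, a Log2 ratio of -0.66. *Cd163*, which encodes the receptor for complexes of haemoglobin and haptoglobin, had 77.0 and 33.3, a Log2 ratio of -1.21. Both genes had their lower value in CD47 KO, and the size of the ratio was 0.73 times the SD of probe sets of like signal for *Folr2* and 1.05 times for *Cd163*.

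*Siglec1* encodes sialoadhesin (CD169), a lectin for sialic acid on other cells. Its brightest probe set had 57.3 in the WT pool and 9.41 in the KO pool. The other probe sets had 39.9 and 21.5, and 5.44 and 13.9, so their Log2 ratios were -2.61, -0.89 and 1.36. The 3 probe sets of the gene disagreed in direction, all below the median on both arrays.

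*Lyve1* encodes a receptor for hyaluronan. One probe set had 16.4 in the WT pool and 67.5 in the KO pool, a Log2 ratio of 2.04, and the other had 11.7 and 6.15, a Log2 ratio of -0.92. These probe sets also disagreed, and probe sets of like signal had SDs of 1.74 and 2.12. Over all 8 marker probe sets below both medians, 5 were lower and 3 higher in CD47 KO. Among genes that were not expressed, 24.5% were more than 2-fold lower and 16.6% more than 2-fold higher, so the direction of these 4 markers cannot be read from single dim probe sets.

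**Figure D3:**
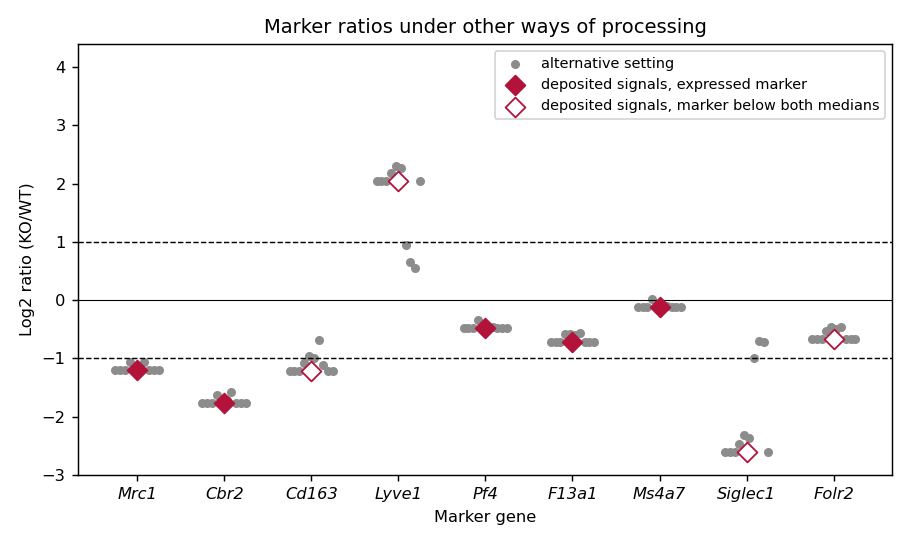
Log2 ratio (KO/WT) of each marker on the deposited signals (diamonds, open where the marker lay below both array medians) and under 10 other ways of processing (grey points), with dashed lines at 2-fold. *Mrc1* stays between -1.06 and -1.19 and *Cbr2* between -1.57 and -1.76, where 4 of the 10 ways could change their ratios, while *Lyve1* ranges from 0.56 to 2.31 and *Siglec1* from -2.61 to -0.69.

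Other genes tied to border-associated macrophages were more divided. Of 38 listed, 33 had a named probe set and 22 were expressed. In CD47 KO cells 15 of these had a lower and 7 a higher signal, with a median Log2 ratio of -0.10. With each array centred on its own median, 10 were lower and 12 higher, with a median of 0.040. Of all expressed genes 49.7% were lower on the deposited signals. *Stab1*, a scavenger receptor gene, had 1131 and 1046, a Log2 ratio of -0.11. *Clec10a*, a lectin gene for galactose and N-acetylgalactosamine, had 222 and 183, a Log2 ratio of -0.28. Probe sets of like signal had SDs of 0.38 and 0.75, larger than either ratio.

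Of the 22 expressed genes of this list, *Cp*, *Cd209d* and *Aoah* were more than 2-fold lower and none was more than 2-fold higher. Among all expressed genes 5.46% were lower and 3.56% higher by more than 2-fold. *Cp*, which encodes the ferroxidase ceruloplasmin and is also made by astrocytes, went from 757 to 360, and its 7 expressed probe sets had Log2 ratios from -0.64 to -2.15. *Cd209d*, a C-type lectin gene, had 280 and 119, a Log2 ratio of -1.23. *Aoah*, which encodes an enzyme that inactivates lipopolysaccharide, had 164 and 25.7, a Log2 ratio of -2.67, and reached the median of the WT array only narrowly. Both *Cd209d* and *Aoah* passed through the WT array alone, so that a lower signal in CD47 KO was built into their passing, and *Cp* was within 2-fold when each array was centred on its own median or a constant was added to both signals.

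Of the bright members of this list, *Tgfbi*, which encodes a secreted matrix protein, had 624 in WT and 350 in CD47 KO, and its 4 probe sets had Log2 ratios from -0.10 to -1.04. *Ms4a6c*, a relative of *Ms4a7*, had 1878 and 1347, a Log2 ratio of -0.48. *Ms4a6d* of the same family had 2484 and 3328, a Log2 ratio of 0.42. *Ednrb*, the endothelin receptor gene also found in astrocytes, had 377 and 580, a Log2 ratio of 0.62 that was 0.43 and 0.99 on its other probe sets. Genes of the MS4A family thus differed in both directions.

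Scavenger and other uptake receptors, with ligands and partners of the markers, were measured as well, as a single list. *Stab1*, *Cd36* and *Folr1* of this list also stand in other lists. Of 12 listed, 7 were expressed, and their median Log2 ratio was 0.06, which ranged from -0.03 to 0.20 over the alternatives. Haptoglobin (*Hp*), whose complex with haemoglobin CD163 takes up, had 1361 in WT and 748 in CD47 KO, a Log2 ratio of -0.86. Downstream in haem and iron handling, the haem oxygenase gene *Hmox1* had 0.18 and the iron exporter gene *Slc40a1* had 0.39. *Folr1*, the folate receptor of choroid plexus epithelium, had 2069 and 1395, a Log2 ratio of -0.57. *F13b*, the partner subunit of factor XIII, and *Cxcr3*, a chemokine receptor reported to bind CXCL4, were not expressed.

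The list of homeostatic microglia genes ran the other way. It holds *Csf1r*, for a receptor that border macrophages also depend on, and *Trem2*, which the paper reports as increased in CD47 KO white matter. All 19 named members were expressed and all 19 had a higher signal in CD47 KO, beside 5886 of all 11695 expressed genes. The count was 16 of 19 after quantile normalization or loess, and 18 of 19 with ratios averaged over the expressed probe sets of a gene. *Sall1*, the lowest, had 781 and 523 on its other probe set, a Log2 ratio of -0.58. In the brightest of the 10 signal groups, from a geometric mean of 1749, the median of all named probe sets was 0.06. On the deposited signals the members had Log2 ratios from 0.02 to 0.66 and a median of 0.18. None passed 2-fold. *P2ry12*, a purinergic receptor gene, had 6873 and 7608, and *Tmem119*, a membrane protein gene, had 5273 and 5857. The summed signal of the list was 162001 in WT and 185419 in CD47 KO. A summed signal leans on the brightest genes of a list and does not measure an amount of cells or RNA. That of the 5 expressed border macrophage markers was 3187 and 1982. With 1 array per genotype the difference between the lists was not tested.

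Among the other myeloid lists, 8 of 9 expressed monocyte genes were lower in CD47 KO, beside 49.7% of all expressed genes. Their median was -0.40, or -0.26 with median centring and -0.29 with the array median required on both arrays. The summed signal was 25792 in WT and 20911 in CD47 KO. *F10* and *Spn* of this list passed through the WT array alone, so that a lower signal in CD47 KO was built into their passing. The chemokine receptor gene *Ccr2*, a defining marker, had 542 and 442. The class II genes *H2-Aa* and *Cd74*, used by a subset of border macrophages, had Log2 ratios of 0.12 and 0.04. The other expressed *H2-Aa* probe sets had 0.10 and -0.52 and thus disagreed in direction. The 5 expressed genes of antigen presentation had a median of 0.04, between -0.06 and 0.18 over the alternatives. Dendritic cell genes had a median of -0.06 over 6 genes, between -0.06 and 0.18 likewise, with 3 genes lower and 3 higher. *Flt3*, a growth factor receptor gene, had 255 and 31.8 and passed through the WT array alone, and *Ccr7*, a homing receptor gene, had 66.6 and 160 and passed through the CD47 KO array alone. Neutrophil genes had a median of -0.18 over 6 genes, or -0.043 with median centring, and 4 of the 6 were lower. Their summed signals were 68336 and 68456, of which *S100a8* gave 19600 and 21931 and *S100a9* gave 22757 and 24191.

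Border macrophages live among fibroblasts, vessels and choroid plexus epithelium, whose genes were also measured. Of 12 fibroblast and meningeal genes, 11 were lower in CD47 KO, 3 of them more than 2-fold, and the median Log2 ratio was -0.82. With each array centred on its own median, 10 were lower and 2 of them more than 2-fold. Of all expressed genes, 49.7% were lower and 5.46% more than 2-fold lower on the deposited signals. The summed signal was 25250 in WT and 19906 in CD47 KO. *Aldh1a2*, a retinoic acid synthesis gene of the meninges, had 628 and 185, a Log2 ratio of -1.77. The collagen gene *Col1a2* had 1519 and 702, a Log2 ratio of -1.11, and *Slc6a13*, a GABA transporter gene of the meninges, had -1.17. The defining matrix genes *Dcn* and *Lum* had -0.32 and -0.93. *Lum* and the collagen gene *Col3a1* passed through the WT array alone, so that a lower signal in CD47 KO was built into their passing. With the array median required on both arrays, the median Log2 ratio of the list was -0.68.

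Of 11 endothelial genes, 9 were lower, with a median of -0.47 and summed signals of 10159 and 8108. Of all expressed genes 49.7% were lower. With each array centred on its own median, 8 of the 11 were lower. *Cldn5*, the tight junction gene of brain vessels, had 1961 and 1420, and *Esam*, an adhesion gene, had 619 and 248. Of 9 expressed genes of pericytes and smooth muscle, 6 were lower, with a median of -0.41 and summed signals of 13105 and 9537. *Tie1* of the endothelial list and *Cspg4* of the pericyte list passed through the WT array alone, so that a lower signal was built into their passing. With the array median required on both arrays, the medians of these lists were -0.42 and -0.35. With median centring they were -0.33 and -0.27. The contractile gene *Acta2* had 4004 and 2002, while *Abcc9*, a potassium channel subunit gene of pericytes, had 249 and 558, a Log2 ratio of 1.17. Another expressed *Abcc9* probe set had 381 and 366, a Log2 ratio of -0.06, so the rise was not shared within the gene. Choroid plexus genes had a median of -0.39 over 7 genes, or -0.26 with median centring. Of the 7 genes 5 were lower, and the summed signals were 32856 and 30931. Of these sums *Ttr*, the transthyretin gene, gave 23088 and 23613, a Log2 ratio of 0.03. The part of these cells in the marker values was not tested.

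**Figure D4:**
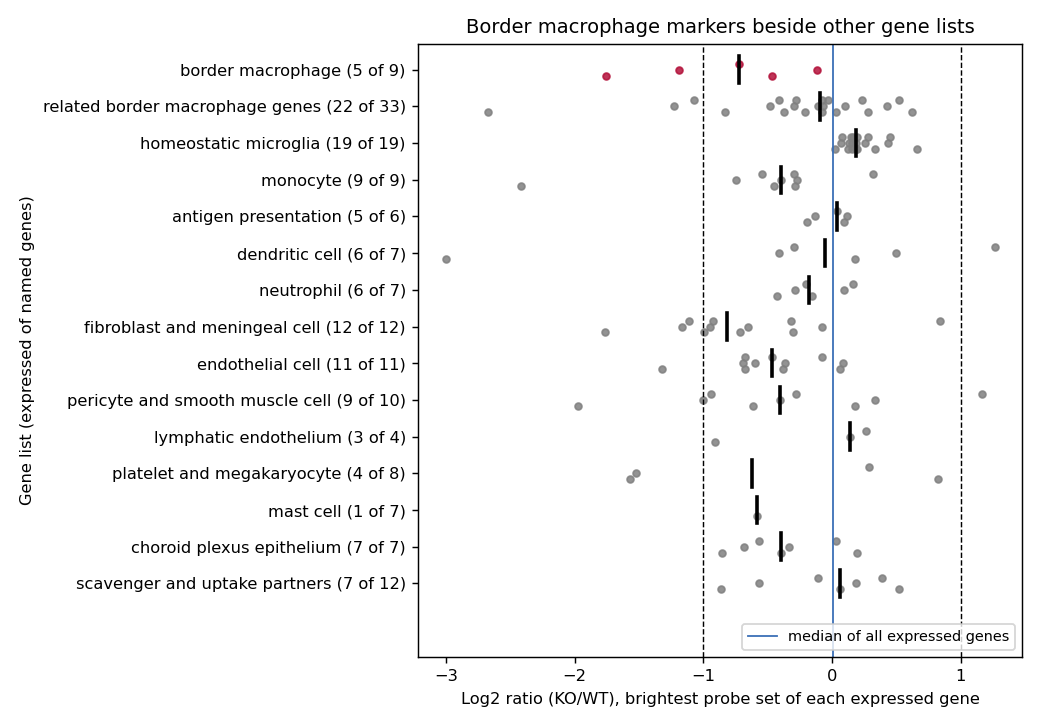
Log2 ratio (KO/WT) of each expressed gene of the border macrophage markers (red) and of 14 other lists (grey), by the brightest probe set, with black bars at the list medians, dashed lines at 2-fold and a blue line at the median of all expressed genes. The marker median is -0.72 and that of fibroblast and meningeal genes is -0.82, or -0.83 and -0.68 with the array median required on both arrays. All 19 homeostatic microglia genes lie above 0 (16 of 19 after quantile normalization or loess, 18 of 19 with expressed probe sets averaged). Of all 11695 expressed genes, 5886 were higher in CD47 KO.

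Other cells that use a marker were looked at for those markers alone. For *Pf4* and *F13a1*, 4 of 8 platelet and megakaryocyte genes were expressed, 2 lower and 2 higher, with summed signals of 1264 in WT and 962 in CD47 KO. Of these, *Gp1bb* passed through the WT array alone and *Clec1b* through the CD47 KO array alone. The lower signal of *Gp1bb* and the higher one of *Clec1b* in CD47 KO were thus built into their passing. *Ppbp*, a chemokine gene of platelets that neighbours *Pf4* in the genome, had 452 and 157, a Log2 ratio of -1.52, and the integrin gene *Itga2b* was not expressed. For *Lyve1*, 3 of 4 lymphatic endothelial genes were expressed, 1 lower and 2 higher, with a median Log2 ratio of 0.14. Their summed signals were 1354 and 1029. *Prox1*, their defining transcription factor gene, had 323 and 355, and its other probe sets had Log2 ratios of 0.67 and 0.77. *Pdpn*, also made by meningeal and choroid plexus cells, was the lower one, with 842 and 447. Of 7 mast cell genes only *Kit*, which many cells use, was expressed, with 246 and 164, and the defining *Cpa3* and *Cma1* lay below both medians. The part of platelets and lymphatic vessels in the marker values was not tested.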

How the data were processed

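RNA of brain mononuclear cells, pooled by genotype, was hybridised to 1 Affymetrix array per pool. The deposited values are MAS5 signal intensities per probe set on a linear scale, which the authors made with the Expression Console Software and scaled per array. The software version is not stated here, and detection calls were not used. Gene names came from the platform annotation. Of 45101 probe sets, 64 are controls, 34945 carry 1 symbol, 932 carry several and 9160 carry none here. Symbols were updated through the gene identifier for the 34741 probe sets whose identifier is in RefSeq (GRCm38.p6).

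Log2 ratios (KO/WT) were taken from the deposited intensities with no offset, in Python 3.11.15 with pandas 2.3.3 and numpy 2.4.6. With a single array per genotype no test was run, and the number of arrays limits the precision. The markers, the 14 other lists and the promoter motif were chosen with earlier results of these data known. Named genes were all 9 markers and a part of the genes that a rule allowed, which took *Cd47* and *Xist*, and from each other list its first 2 genes and up to 4 genes above the 75th percentile of an array with the largest ratios. *Aoah*, *Cd209d*, *Ms4a6d*, *Slc6a13*, *Kit*, *Ccr7*, *F13b* and *Cxcr3* fall outside this rule and were named after their values were seen. So were *Col3a1*, *F10*, *Spn*, *Tie1*, *Cspg4*, *Gp1bb* and *Clec1b*. Each result was recomputed under 10 alternatives for the signal threshold, the scaling (loess with a fraction of 0.4, statsmodels 0.14.6), low signals and the choice of probe set. The calculation was tested on simulated arrays.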

Additional observations from a re-analysis of the deposited data

How the results depend on the processing

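*Mrc1* and *Cbr2* have 1 bright probe set each, so that only the 3 scalings and the added constant could change their ratios. Under these 4 alternatives both stayed more than 2-fold lower in CD47 KO, with Log2 ratios from -1.06 to -1.14 and from -1.57 to -1.71. *Pf4* (-0.33 to -0.47), *F13a1* (-0.57 to -0.72) and *Folr2* (-0.46 to -0.66) kept their direction, and *Ms4a7* turned to 0.02 with median centring. *Cd163* (-0.68 to -1.21) and *Siglec1* (-0.69 to -2.61) were within 2-fold in 3 of the 10 alternatives each. With no signal threshold 9 markers counted as expressed, of which 4 were more than 2-fold lower and 1 higher. With the threshold at the 75th percentile 3 were expressed and 1 was lower, since *Mrc1* dropped out. The median of the expressed markers was -0.83 with the array median required on both arrays, -0.47 at the 75th percentile, -0.58 with median centring, -0.57 with quantile normalization, -0.59 with loess and -0.57 with a constant of 39.2 added to both signals. Median centring raised the median of all expressed genes to 0.14, that of the related border macrophage genes to 0.040 and that of homeostatic microglia to 0.32, while the last was 0.12 with quantile normalization and 0.11 with loess. Lymphatic endothelial genes went from a median of 0.14 to -0.91 at the 75th percentile, where *Pdpn* alone was left. No paired analysis was possible because each genotype has a single pooled array. Dim probe sets limit the reading of *Cd163*, *Lyve1*, *Siglec1* and *Folr2*.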
